A study of Homo sapiens with 7 samples.

Results

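The genes described here read or remove methylation of cytosine in DNA: the dioxygenases TET1 and TET2, the thymine DNA glycosylase TDG, the methyl-CpG-binding domain proteins MBD1, MBD2, MBD3 and MBD4, and the zinc finger proteins ZBTB4, ZBTB33 and ZBTB38. They were chosen by name, as probes to which the platform annotation gives exactly 1 of these 10 symbols. That rule found 22 of the 41000 probes and 10 of 18646 genes, with 3 genes read by 1 probe and 7 by several. The arrays compared 2 dyes each. In DLD1, HT29 and RKO cells, which are established colorectal cancer lines, cells carrying an shRNA against DNMT1 were compared with cells of that line carrying a non-silencing control. Each of these lines has 1 array with shRNA 49 and 1 with shRNA 51, and the knockdown RNA carried Cy3 with the former and Cy5 with the latter, so shRNA and dye cannot be told apart. A single further array holds HCT116 cells, also colorectal, with an shRNA against UHRF1 and a stated knockdown efficiency of 60%. Its title carries the tag d14, which the titles of the DNMT1 arrays do not. The labels do not name the cultures. The p-values over the 3 lines reflect variation among arrays that includes differences between the lines. For tests within or between lines, or between the shRNAs, the variation left among arrays could be purely technical.

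Every value below is the log2 of knockdown over control, or a level as a percent of control computed from it. A ratio carries no level, so neither the order of expression among the genes nor the presence of colon markers could be read from these arrays. The direction of the ratios is not given in the labels and was read from the targeted genes. DNMT1 stood between 10.4% and 52.8% of control on the 6 DNMT1 arrays and at 106% on the UHRF1 array. The weakest knockdown, 52.8%, was that of HT29 with shRNA 51, and the next was 25.4%, in DLD1 with shRNA 49. UHRF1 averaged -1.16 on its own array over 4 probes. The 2 annotated to NM_013282 stood at -3.10 and -2.06, and knockdown over control was read from these. The 2 annotated to BC137009 stood at -0.18 and at 0.68, the latter a ratio that other probes hold exactly. The direction is therefore less certain there than on the DNMT1 arrays. Ratios spread more widely with shRNA 51, where the interquartile range over genes was 0.743 to 0.931 against 0.528 to 0.662 with shRNA 49. Between 34% and 44% of the ratios of an array were held exactly by other probes of that array, for a reason the sources used here do not give. Such shared ratios made up 30 of the 127 values of the member probes on the DNMT1 arrays. All 5 blank cells of those probes lay on shRNA 51 arrays.

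As background, DNMT1 copies methylation onto newly made DNA, and UHRF1 brings it there. TET enzymes oxidise 5-methylcytosine step by step, and TDG cuts out the most oxidised forms so that base excision repair restores an unmethylated cytosine. MBD proteins and the zinc finger proteins of the Kaiso family recognise methylated sites and bring co-repressors to them, MBD2 and MBD3 as alternative subunits of the NuRD chromatin remodelling complex. The mark on which these proteins act is thus the one that DNMT1 copies. The arrays measured RNA and not methylation, so they show only whether the transcripts of these genes moved.

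The promoters of 3 genes are shown because their CpG content, the substrate of DNMT1, spans the range of the group from the highest through the middle to the lowest. Each run is the 250 bases before the RefSeq start on GRCh38.p14, given 5′ to 3′ on the strand of the gene, with CpG dinucleotides in capitals. MBD3 lies at chr19:1592866-1593115 on the minus strand, TDG at chr12:103965622-103965871 on the plus strand and ZBTB38 at chr3:141323936-141324185 on the plus strand.
MBD3: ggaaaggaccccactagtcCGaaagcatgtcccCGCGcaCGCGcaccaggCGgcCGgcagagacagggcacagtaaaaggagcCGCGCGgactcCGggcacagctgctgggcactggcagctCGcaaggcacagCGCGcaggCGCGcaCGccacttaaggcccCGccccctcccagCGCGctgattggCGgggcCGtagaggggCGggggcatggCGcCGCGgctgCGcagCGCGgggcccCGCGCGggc
TDG: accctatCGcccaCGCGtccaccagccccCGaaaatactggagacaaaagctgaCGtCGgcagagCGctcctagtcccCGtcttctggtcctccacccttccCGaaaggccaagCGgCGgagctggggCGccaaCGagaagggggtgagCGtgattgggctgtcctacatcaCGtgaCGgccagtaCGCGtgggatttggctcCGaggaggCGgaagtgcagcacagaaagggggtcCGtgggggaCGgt
ZBTB38: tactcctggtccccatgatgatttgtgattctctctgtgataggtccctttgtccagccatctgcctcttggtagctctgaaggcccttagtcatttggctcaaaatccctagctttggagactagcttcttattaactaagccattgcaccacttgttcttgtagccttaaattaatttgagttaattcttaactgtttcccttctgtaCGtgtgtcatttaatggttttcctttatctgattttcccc
The MBD3 run holds 32 CpG and is 74.8% G and C, the TDG run holds 22 and is 64.0% G and C, and the ZBTB38 run holds 1 and is 41.2% G and C. The median over the 10 genes was 22.5, over the 13856 tested genes with a promoter in the RefSeq table it was 19, and over the 47 genes among them that rose after DNMT1 knockdown it was 9. TET1 (9) and TET2 (10) followed ZBTB38 from the bottom, and MBD2, MBD1, ZBTB33, MBD4 and ZBTB4 held 21 to 27. In all, 8 of 10 promoters held at least 10 CpG, against 52.2% of the 35116 promoters in the table. CG itself is found in 93.9% of them. The promoters of that whole table had a median of 11 CpG, below the 19 of the tested genes. The share with at least 10 CpG among the tested genes was not computed, so 52.2% is not a like background for the members. A pair of motifs known for ZBTB33 (Kaiso) was searched on both strands: TCTCGCGAGA, a palindrome, stood in 0.373% of all promoters and TCCTGCNA in 3.74%, and neither was in the window of a member. Neither motif contains the other.

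None of the 10 genes passed the test over the 3 lines after DNMT1 knockdown. Their mean log2 ratios ran from -0.65 (MBD3) to 0.36 (ZBTB4), 6 above 0 and 4 below where 55.2% of all genes were above 0, and adjusted p from limma ran from 0.444 to 0.889. The count of 0 of 10 stands beside 0.38% of 17623 tested genes that rose (67) and 0.017% that fell (3). At an unadjusted p under 0.05 the count was also 0 of 10, against 11.4% of all genes, and the lowest unadjusted p was 0.0523. The median absolute mean was 0.18 for the members and 0.19 for all genes, and the median SD over the 6 arrays was 0.47 for the members and 0.49 for all genes. For 9 of 10 members the 95% interval of the mean lay inside a 2-fold change in either direction, as it did for 74.1% of all genes. MBD3 was the exception. In bulk RNA, fewer cells of a kind and less RNA per cell cannot be told apart. No member had 1 sign on all 6 arrays, against 6.88% of the genes with 6 values.

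**Figure D1:**
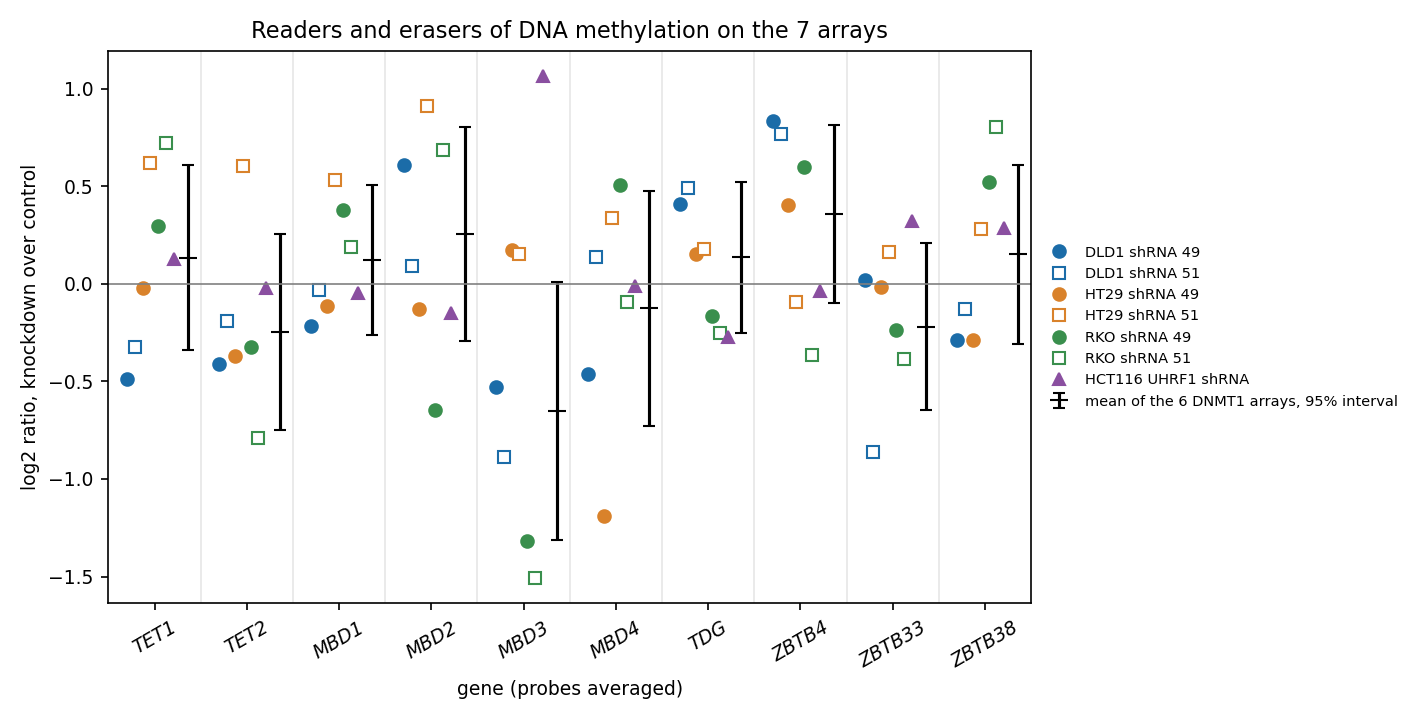
Log2 ratio of knockdown over control (vertical axis) for each gene, probes averaged, on each of the 7 arrays. Circles are shRNA 49, open squares shRNA 51 and triangles the UHRF1 array, colours are cell lines, and black bars are the limma mean of the 6 DNMT1 arrays with its 95% interval. MBD3 lies at -1.32 and -1.51 in RKO and, on the UHRF1 array, at 1.06, or -1.06 if the uncertain direction of that array is turned, and the TDG points fall in line order with little spread inside a line.

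TET1 and TET2, the oxidising enzymes, had the same sign on every DLD1 and HT29 array and opposite signs on both RKO arrays. Neither passed the F test over lines (adjusted p = 0.739 and 0.798). With shRNA 49 and then shRNA 51, TET1 lay at -0.49 and -0.32 for the DLD1 pair of arrays, -0.02 and 0.62 for the HT29 pair, and 0.30 and 0.72 for the RKO pair. The average was therefore below 0 on both DLD1 arrays, at 71.3% and 79.9% of control, and above 0 on both RKO arrays, at 123% and 165%. In DLD1 with shRNA 51 probe A_32_P202134 lay at -0.90 and A_32_P93045 at 0.25, both shared ratios. Probe A_23_P322756 was blank on every shRNA 51 array. The HT29 value with shRNA 51 rests on the shared ratio of A_32_P202134 alone. The mean was 0.13 ± 0.20 (SE, n = 6), with a 95% interval of -0.34 to 0.61 and an adjusted p of 0.844. The RKO minus DLD1 difference of 0.92 ± 0.33 (SE) did not pass (adjusted p = 0.726). Of the 14 probe values behind TET1, 12 were shared ratios, and probe A_32_P202134 alone averaged -0.08, below 0, so its size is uncertain.

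TET2 lay at -0.41 and -0.19 for the DLD1 pair, -0.37 and 0.60 for the HT29 pair, and -0.33 and -0.79 for the RKO pair, each pair given with shRNA 49 first, here as below. It was below 0 on 5 of 6 arrays, and HT29 with shRNA 51 was the one above. The mean was -0.25 ± 0.21 (SE, n = 6, 95% interval -0.75 to 0.25, adjusted p = 0.711). Its 2 probes are annotated to different RefSeq transcripts. Probe A_23_P350187 (NM_001127208) averaged -0.30 with no shared ratio, and probe A_24_P932233 (NM_017628), which held shared ratios on 4 of the 6 arrays, averaged -0.20. They stood furthest apart in DLD1 with shRNA 51, at 0.38 and -0.77.

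TDG and MBD4 are the thymine glycosylases of the group, enzymes that remove thymine from G:T mismatches left by deamination of methylcytosine. TDG lay at 0.41 and 0.49 for the DLD1 pair, 0.15 and 0.18 for the HT29 pair, and -0.17 and -0.25 for the RKO pair. The arrays of a line were never more than 0.08 apart, while DLD1 and RKO differed by 0.66. Levels thus ran from 133% and 141% of control in DLD1 through 111% and 113% in HT29 to 89.1% and 84.1% in RKO, and no line overlapped another.

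That order was shared by the probes. All 3 TDG probes lay above 0 on both DLD1 arrays, between 0.36 and 0.62, and below 0 on both RKO arrays, between -0.29 and -0.09, and none held a shared ratio. Ranges of the 3 lines that do not overlap were found for 2 of 10 members, TDG and MBD3, against 7.35% of all genes with 6 values. For TDG the difference itself did not pass: RKO minus DLD1 was -0.66 ± 0.32 (SE, adjusted p = 0.734), and the F test over lines gave an unadjusted p of 0.214. The SE uses a spread that limma moderates over all genes. The mean over lines was 0.14 ± 0.16 (SE, n = 6, 95% interval -0.25 to 0.52, adjusted p = 0.798).

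MBD4, which joins a glycosylase to a methyl-CpG-binding domain, lay at -0.46 and 0.14 for the DLD1 pair, -1.19 and 0.34 for the HT29 pair, and 0.51 and -0.09 for the RKO pair. The value of 43.9% of control in HT29 with shRNA 49 was the one MBD4 array past 2-fold. Both arrays of every line lay on opposite sides of 0, so no line showed a direction for this gene. The mean was -0.13 ± 0.25 (SE, n = 6, adjusted p = 0.889), and without the HT29 array with shRNA 49 it was 0.085.

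MBD3 stood furthest from 0. MBD3 is the NuRD subunit that resembles MBD2 and in mammals has largely lost affinity for methylated CpG. It lay at -0.53 and -0.89 for the DLD1 pair, 0.17 and 0.15 for the HT29 pair, and -1.32 and -1.51 for the RKO pair. Levels were 69.2% and 54.1% of control for DLD1, 113% and 111% for HT29, and 40.1% and 35.2% for RKO, so DLD1 and RKO were low with both shRNAs and HT29 was not.

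In RKO the mean was -1.41 ± 0.23 (SE, n = 2 arrays, spread shared over lines), with a 95% interval of -2.01 to -0.82, an unadjusted p of 0.00193 and an adjusted p of 0.206 in limma. In DLD1 it was -0.71 ± 0.23 (SE, adjusted p = 0.4997). Neither passed over all genes. RKO minus HT29 was -1.58 ± 0.32 (SE, adjusted p = 0.696), and the F test over lines gave an unadjusted p of 0.0140, the one member under 0.05 against 6.45% of all genes. Over the 3 lines the mean was -0.65 ± 0.28 (SE, n = 6, 95% interval -1.31 to 0.01, adjusted p = 0.444). MBD3 has 1 probe, annotated to the cDNA clone AK092508, so no second probe checks these values, and 1 of its 6 ratios, that of HT29 with shRNA 51, is shared.

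MBD2, the paralog that binds methylated CpG, lay at 0.61 and 0.09 for the DLD1 pair, -0.13 and 0.91 for the HT29 pair, and -0.64 and 0.69 for the RKO pair. The shRNA 51 arrays were all above 0, at 107% to 188% of control, and the shRNA 49 arrays lay on both sides. The mean was 0.25 ± 0.23 (SE, n = 6, 95% interval -0.29 to 0.80, adjusted p = 0.729).

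The 3 MBD2 probes disagreed more than those of any other member, by up to 2.08 on 1 array, and lay on both sides of 0 on 5 of 6 arrays. Probe A_24_P119201, annotated to NM_015832, had a plain mean of 0.77 and a mean fitted with the shRNA covariate of 0.86 ± 0.41 (SE, n = 5, adjusted p = 0.494 over probes), with 1.77 and 1.10 in DLD1, -0.16 in HT29 with shRNA 49, and -0.62 and 1.75 in RKO. NM_015832 is the transcript whose product RefSeq calls the testis-specific isoform. Of those 5 ratios 4 are shared, DLD1 with shRNA 49 being the one that is not, and the HT29 shRNA 51 cell is blank. The probes annotated to NM_003927, the longer transcript, averaged 0.13 (A_23_P15864) and -0.16 (A_32_P107777).

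MBD1, a repressor that works with the histone methyltransferase SETDB1, had the smallest SD of the MBD genes over the 6 arrays, 0.293. It lay at -0.22 and -0.03 for the DLD1 pair, -0.11 and 0.53 for the HT29 pair, and 0.38 and 0.19 for the RKO pair. The groups were mixed in sign, and the mean of 0.12 ± 0.16 (SE, n = 6, 95% interval -0.26 to 0.51, adjusted p = 0.820) rests on 18 probe values, none shared.

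**Figure D2:**
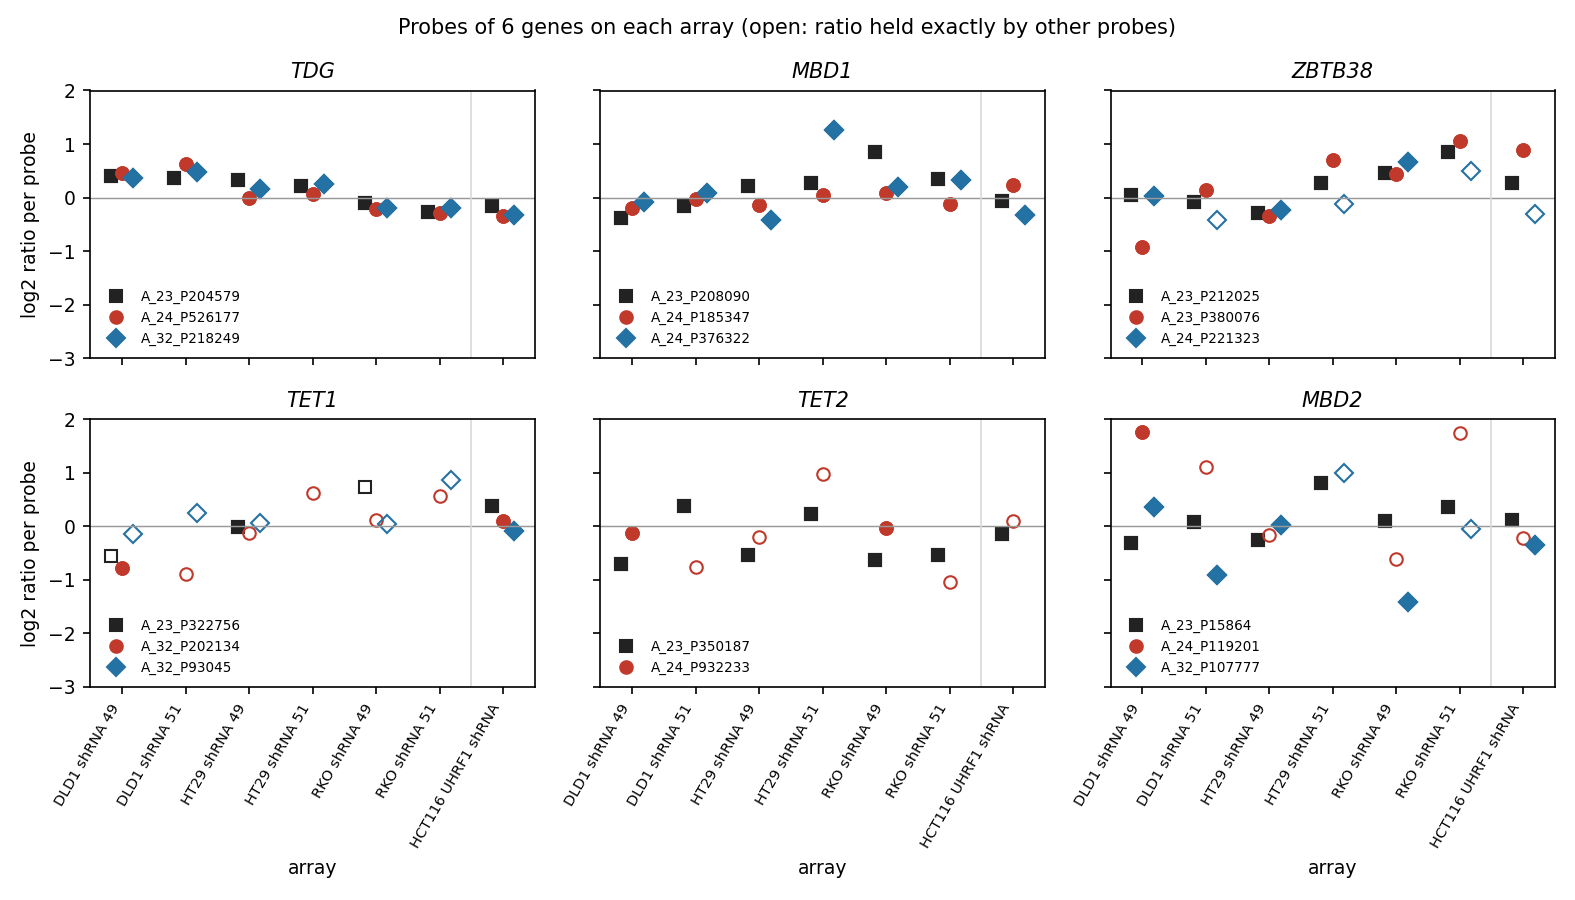
Log2 ratio of each probe (vertical axis) of 6 genes on each of the 7 arrays (horizontal axis). Colours and marker shapes are probes, and open markers are ratios that other probes of the same array hold exactly. The TDG probes stay within 0.34 of each other on the DNMT1 arrays, and the MBD2 probes lie up to 2.08 apart.

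Among the Kaiso family proteins, which bind methylated DNA through zinc fingers, ZBTB4 had the highest mean. It lay at 0.83 and 0.77 for the DLD1 pair, 0.41 and -0.09 for the HT29 pair, and 0.60 and -0.37 for the RKO pair. All shRNA 49 arrays were above 0, at 133% to 178% of control, while with shRNA 51 only DLD1 was, at 170%. The mean was 0.36 ± 0.19 (SE, n = 6, 95% interval -0.10 to 0.81, adjusted p = 0.543), and in DLD1 it was 0.80 ± 0.27 (SE, n = 2, unadjusted p = 0.0318, adjusted p = 0.510, limma). ZBTB4 has 1 probe, with no shared ratio.

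ZBTB38 lay at -0.29 and -0.13 for the DLD1 pair, -0.29 and 0.28 for the HT29 pair, and 0.52 and 0.80 for the RKO pair. Its average was below 0 on both DLD1 arrays and above 0 on both RKO arrays, at 143% and 175% of control. All 3 probes lay above 0 on both RKO arrays, between 0.44 and 1.06. In DLD1 the probes split in sign. They lay at 0.04, -0.93 and 0.03 with shRNA 49. With shRNA 51 they lay at -0.09, 0.13 and -0.43, the last a shared ratio. The RKO mean was 0.66 ± 0.23 (SE, n = 2, unadjusted p = 0.0377, adjusted p = 0.380, limma), RKO minus DLD1 was 0.87 ± 0.33 (SE, adjusted p = 0.726), and the mean over lines was 0.15 ± 0.19 (SE, n = 6, adjusted p = 0.816).

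ZBTB33, or Kaiso itself, lay at 0.02 and -0.86 for the DLD1 pair, -0.02 and 0.16 for the HT29 pair, and -0.24 and -0.38 for the RKO pair. DLD1 with shRNA 51, at 54.9% of control, was the lowest array. The mean was -0.22 ± 0.18 (SE, n = 6, 95% interval -0.65 to 0.21, adjusted p = 0.699).

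Within single lines 0 of 10 members passed after adjustment, where the share of genes that rose was 0.0227% for DLD1, 0.017% for HT29 and 0.0454% for RKO, and the share that fell was 0.0% in each. At an unadjusted p under 0.05 there were 2 members in DLD1 (MBD3 and ZBTB4) against 8.8% of genes, 0 in HT29 against 8.03%, and 2 in RKO (MBD3 and ZBTB38) against 12.5%. The F test over lines called 0 members and 0.0% of 17623 genes. Between the shRNAs 0 members passed, as 0.0% of genes did, and at an unadjusted p under 0.05 it was 0 of 10 against 11.2% of genes. The shRNA 51 minus shRNA 49 difference was above 0 for 7 of 10 members and for 57.3% of genes. It ran from -0.51 ± 0.31 for ZBTB4 to 0.62 ± 0.45 for MBD2 (SE, adjusted p = 0.563 and 0.615). Without either RKO array these were -0.28 and 0.26, and without either DLD1 array -0.73 and 1.18. TDG stood at 0.01 ± 0.26, with a 95% interval of -0.67 to 0.68. For 7 of 10 members, all but MBD1, MBD3 and TDG, the interval reached past a 2-fold difference, so these arrays leave room for a difference of that size between the shRNAs. The share of all genes with such an interval was not computed, so this count is not a trait of the members.

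Array by array, few members went far from 0. Past 2-fold in either direction were 0 members in DLD1 with shRNA 49 and 0 with shRNA 51, against 4.97% and 17.7% of genes. In HT29 there was 1 (MBD4) with shRNA 49 and 0 with shRNA 51, against 7.27% and 16.2%, and in RKO MBD3 alone with each shRNA, against 7.79% and 22.0%. HT29 with shRNA 51 had 9 of 10 members above 0, ZBTB4 being the other one, where 54.0% of all genes were above 0. That array also had the weakest knockdown, with DNMT1 at 52.8% of control. HT29 with shRNA 49 had 3 of 10, against 48.5% of all genes.

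**Figure D3:**
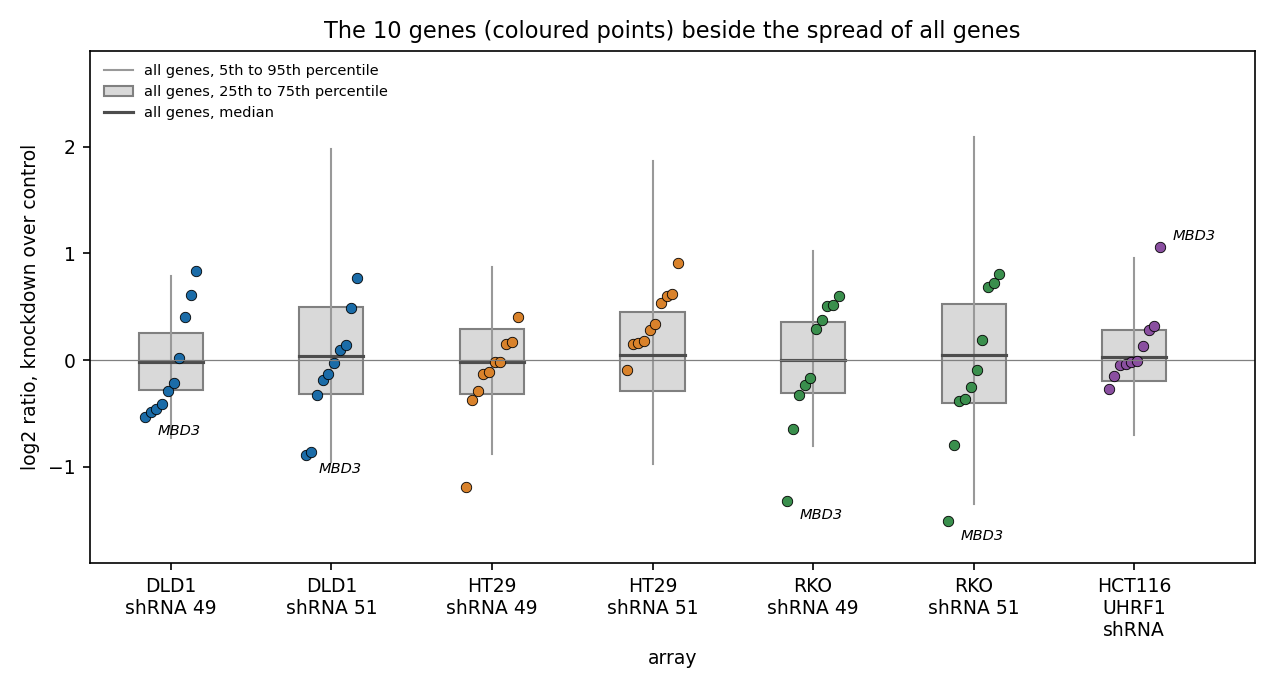
Log2 ratio of the 10 genes (points) on each of the 7 arrays beside all genes of that array, whose 25th to 75th percentile is the grey box, whose 5th to 95th is the grey line and whose median is the dark bar. MBD3 is named where it lies more than 0.5 from 0. It falls outside the grey line on both RKO arrays and on the UHRF1 array.

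On the UHRF1 array, which has no replicate and hence no test, MBD3 stood at 1.06, or 209% of control. With the sign of the array turned, that value is -1.06, or 47.8% of control, so it is not set against DLD1 or RKO here. The 2 UHRF1 probes annotated to NM_013282, at -3.10 and -2.06, go with the sign as given. MBD3 was the 1 member past 2-fold in either direction, against 6.94% of genes, a count that turning the sign cannot change. ZBTB33 (0.32), ZBTB38 (0.29) and TET1 (0.13) lay above 0. TET2 (-0.02), MBD4 (-0.01), ZBTB4 (-0.04), MBD1 (-0.05), MBD2 (-0.15) and TDG (-0.27) lay below. For 7 of 10 members this value was inside the range of the 6 DNMT1 arrays, and MBD3, ZBTB33 and TDG were outside it, TDG just below its lowest. With the sign turned all 10 were inside. The share of all genes inside that range was not computed for either sign. These counts therefore set neither the members apart nor the direction of the array. The ZBTB33 value rests on a shared ratio of 0.66, and its other probe lay at -0.02. ZBTB38 also holds a shared ratio, of -0.30, and without it stood at 0.58. Target, cell line, array and the d14 tag of the title cannot be told apart in this comparison.

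Partner genes did not pass in limma either, and the counts at an unadjusted p under 0.05 are given beside the background of 11.4%. Of 12 NuRD subunits 0 rose and 0 fell, and 0 were under the unadjusted threshold, with a median of -0.04, against 0.03 for all genes tested. HDAC2, a histone deacetylase, stood at 0.29 ± 0.17 and GATAD2B, a bridging subunit, at -0.28 ± 0.15 (SE, n = 6, adjusted p = 0.583 and 0.545). The other proteins with an MBD-like fold had 0 of 6 tested genes above 0 (55.2% of all genes were), none past the threshold and 0 under the unadjusted one, with MBD5 at -0.35 ± 0.27 (SE, n = 5, fitted without the blank RKO array of shRNA 51) and MBD6 at -0.13 ± 0.16 (SE, n = 6). Base excision repair enzymes, which complete the work of TDG, had 0 calls among 18 tested, 0 at the unadjusted threshold and a median of 0.00. Of these the glycosylases NEIL1 and NTHL1 stood furthest out, at 0.45 ± 0.43 and -0.44 ± 0.19 (SE, n = 6, adjusted p = 0.743 and 0.451).

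Genes that supply or clear TET cofactors had 0 calls among 8 tested and 1, D2HGDH, at the unadjusted threshold. D2HGDH, which removes 2-hydroxyglutarate, an inhibitor of TET enzymes, was below 0 on 6 of 6 arrays, from -0.81 to -0.18, with a mean of -0.43 ± 0.15 (SE, adjusted p = 0.363). IDH2, which makes 2-oxoglutarate, stood at -0.22 ± 0.30, with -1.99 in RKO and -0.84 in HT29 with shRNA 51 and values above 0 on the other arrays. Among partners of the readers 0 of 12 passed and 2 were under the unadjusted threshold. TBL1X, a subunit of the co-repressor complex that Kaiso binds, was also below 0 on all 6 arrays, at -0.70 ± 0.22 (SE, adjusted p = 0.324). SUV39H1, a histone methyltransferase, averaged -0.40 ± 0.18 (SE, n = 6, adjusted p = 0.453) and was above 0 on 2 arrays, with an unadjusted p of 0.0557 in limma.

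Marker lists had 0 calls as well, with 1 of 10 colon epithelium, 3 of 10 fibroblast and endothelium and 2 of 7 haematopoietic genes under the unadjusted threshold. Colon epithelium markers had a median of 0.11 over 10 genes, 6 of them above 0, means of -0.64 to 1.19 and array medians of -0.53 to 0.77. The largest means were those of EPCAM, 1.19 ± 0.62, and KRT19, 0.94 ± 0.58 (SE, n = 6), both led by RKO with shRNA 51 at 4.74 and 4.13. Fibroblast and endothelium markers had a median of 0.19 over 10 tested genes, 6 of them above 0, where 55.2% of all genes were. Their means ran from -0.20 to 1.32 and their array medians from -0.19 to 0.91. PECAM1 stood at 1.32 ± 0.26 and FAP at 1.03 ± 0.40 (SE, n = 5, both blank on the RKO array of shRNA 51). Haematopoietic markers had a median of 0.12 over 7 tested genes, 5 of them above 0, with means of -0.13 to 1.10. Array medians were 0.01 to 0.43. CD68 stood at 1.10 ± 0.36 and CD3D, also blank on the RKO array of shRNA 51, at 1.07 ± 0.22 (SE). These are ratios and give no amount of another cell type, and their part in the values above was not tested.

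Over the 7 arrays the genes whose ratios ran most like those of TET1 were MAPT, TP53BP1 and FRK, with Pearson's r of 0.993, 0.981 and 0.980. For TET2 they were ZBP1, SRGAP3 and CD96, with r of 0.987, 0.987 and 0.982. They were sought among 15694 genes with 7 values, of which 92 reached an r above 0.9 with TET1 and 143 with TET2. The genes named are the highest of each search. The TET2 neighbours share its contrast between HT29 and RKO with shRNA 51, where ZBP1 lay at 3.68 and -1.78. For TET2 that contrast was wider on probe A_24_P932233, at 0.99 and -1.04, both shared ratios. Probe A_23_P350187, with no shared ratio, stood at 0.22 and -0.54. Of the 14 TET1 probe values on the DNMT1 arrays 12 were shared. Among the members, TET1 ran with ZBTB38 (r = 0.855) and opposite to ZBTB4 (r = -0.861). These correlations describe 7 arrays that share lines, shRNAs and dye orientation, and carry no test.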

How the data were processed

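RNA of 7 two-colour arrays was used, 6 for DNMT1 knockdown and 1 for UHRF1 knockdown. The deposited values are log ratios, 1 for each probe on each array, and their range led to reading them as log2. Per the submitters' processing notes limma was used, with no version. The sources used here do not state the background correction, normalization, log base or direction, and array medians lay between -0.02 and 0.02. Of 41000 probes 29341 had 1 symbol in GEO's platform annotation, 33 several and 11626 none listed, and 99.9% of the named ones matched a RefSeq gene (GRCh38.p14) by Entrez identifier. Probes of a symbol were averaged. Genes with a value on at least 5 of the 6 DNMT1 arrays (17623) entered limma 3.58.1 (R 4.3.3): the mean over lines with the shRNA as covariate and the line as random block (consensus correlation 0.165), and line and shRNA effects with 1 coefficient per line plus the shRNA. Means with an SE are fitted coefficients and differ from plain means where an array is blank. SEs are moderated and leave out the difference between the shRNAs. Benjamini-Hochberg adjustment ran over all genes, with a threshold of 0.05, two-sided. Scripts were tested on simulated data. The arrays' number limits the precision, and no filter on dim probes was possible.

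Members and gene lists were chosen with earlier results of these data known. All 10 members are named. From every other list the text names genes past the threshold and the 2 with the largest absolute mean, and for TET1 and TET2 the 3 genes closest by Pearson correlation. Of the listed genes 6 were not matched to a symbol and are not analysed here. Alternatives covered the shRNA covariate, averaging within lines, centring, scaling, quantile normalization, shared ratios, the minimum of arrays, single probes and each array in turn. Promoter sequences are from RefSeq and all 10 members matched.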

Additional observations from a re-analysis of the deposited data

How the results depend on the processing

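The count of 0 members past the threshold over the 3 lines held under all 15 alternatives, and the counts of 0 within lines and between shRNAs under 9 each. The lowest adjusted p of a member's mean over lines was 0.225. On the UHRF1 array 1 member, MBD3, lay past 2-fold with probe medians and without shared ratios too. MBD3 has 1 probe, with no shared ratio on that array, so these settings could not move it and could only bring in other members. Turning the sign of that array cannot change a count taken in either direction. With the sign turned, an alternative chosen after seeing the data, 10 rather than 7 members lay inside the DNMT1 range. Of 157 recomputed means over lines 153 kept their direction. The exceptions were MBD4, between -0.36 without RKO shRNA 49 and 0.085 without HT29 shRNA 49, and single probes of TET1 (A_32_P202134, -0.081), MBD1 (A_24_P185347, -0.056) and MBD2 (A_32_P107777, -0.16). Sizes were less stable. With 1 array left out the means ran from 0.061 without RKO shRNA 51 to 0.29 without DLD1 shRNA 51 for TET1, -0.43 without HT29 shRNA 51 to -0.078 without RKO shRNA 51 for TET2, and 0.030 without RKO shRNA 49 to 0.18 without DLD1 shRNA 51 for MBD1. They ran from 0.074 without DLD1 shRNA 49 to 0.41 without RKO shRNA 49 for MBD2, 0.056 without DLD1 shRNA 51 to 0.21 without RKO shRNA 51 for TDG, and 0.20 without DLD1 shRNA 51 to 0.47 without RKO shRNA 51 for ZBTB4. For ZBTB33 they ran from -0.35 without HT29 shRNA 51 to -0.091 without DLD1 shRNA 51, for ZBTB38 from 0.050 without RKO shRNA 49 to 0.25 without DLD1 shRNA 51, and for MBD3 from -0.85 to -0.51. TET1 could not be tested without shared ratios, since too few arrays kept a value. Of the shRNA differences 14 of 89 turned. With 1 array left out they ran from -0.73 to -0.28 for ZBTB4 and 0.26 to 1.18 for MBD2, from -0.12 to 0.60 for TET2, -0.0022 to 0.41 for MBD1, -0.00052 to 1.06 for MBD4, -0.029 to 0.054 for TDG and -0.52 to 0.015 for ZBTB33. MBD3 turned to 0.19 with quantile normalization and 0.015 with scaled spread, and TDG to -0.097 and -0.041. For a reason that was not tested, the count of all genes that rose over the lines fell from 67 to 10 without the shRNA covariate, 7 with lines averaged and 29 with quantile normalization, and it ran from 8 without RKO shRNA 49 to 168 without DLD1 shRNA 51. The count that fell, 3, became 0 under those same 3 settings, 1 with scaled spread, and 0 to 38 with 1 array left out. Within DLD1, HT29 and RKO the 4, 3 and 8 genes that rose became 0 in each without the covariate, 37, 34 and 23 with quantile normalization, and 55, 51 and 170 without shared ratios. With 1 array left out they ran from 0 to 42, 0 to 20 and 0 to 190. In RKO 0 genes fell, against 19 without shared ratios and 50 without RKO shRNA 49. The MBD3 mean in RKO stayed between -1.44 and -1.41, with adjusted p of 0.0754 at the lowest, without shared ratios.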
